A study of Mus musculus with 28 samples.

Results

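The genes described here are 8 genes of Schwann cells, the glia of peripheral nerve: the myelin genes *Mbp*, *Pmp22*, and *Prx*, the lineage genes *Sox10* and *S100b*, and the genes *Ngfr*, *Ncam1*, and *Gfap*, which mark immature, non-myelinating, and injury-responsive Schwann cells. They were taken as a list of symbols. All 8 were found among the 56980 genes of the bulk table and among the 32285 genes of the single-cell matrices, and all 8 passed the minimum mean normalized count of 100 that left 12673 genes to be tested. *Gfap* and *Ngfr* passed this minimum through the arteriovenous fistulas (AVFs) alone, since they had 2 and 47 counts in all contralateral veins together. The samples were jugular veins of male and female C57BL/6 mice with a carotid-jugular AVF, a surgical connection in which the end of the vein is sewn to the side of the artery. All mice had first undergone a subtotal nephrectomy, so that every group, the control veins included, came from animals with reduced kidney function. Bulk RNA was sequenced from 7 contralateral jugular veins, which carried no AVF, and from 8 early (labelled day 3), 5 mid (day 10), and 5 late (day 21) AVFs, while single cells were sequenced from 1 library for each of 3 conditions (contralateral, early AVF, and late AVF), made from pooled vessels of both sexes. By the study's methods the single-cell AVFs called early and late were harvested on average later than the bulk AVFs of the same name. Ages were not given in the sources used here, and whether the contralateral veins came from the same animals as the AVFs was not stated per sample.

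A large vein holds nerve bundles in its outer layer, and nerve runs along the carotid artery to which the vein was joined. A Schwann cell either wraps the membrane of a single large axon into compact myelin or holds several thin axons in shallow troughs without myelin. When axons are cut, myelinating cells turn off their myelin genes, and Schwann cells take on a repair state in which trophic factors and adhesion molecules are made. The peripheral fibres to vessels are mostly sympathetic, and their cell bodies lie in ganglia, where Schwann-related satellite glia surround the neurons.

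Bulk libraries held 20254173 to 29913427 counts in contralateral veins and 23676215 to 67457501 in AVFs. Their complexity differed: contralateral libraries had counts for 11958 to 18283 genes, early AVFs for 17514 to 25141, mid AVFs for 25075 to 26168, and late AVFs for 24529 to 26771. The part of this gap in the zeros of rare transcripts was not tested. Transcripts of sympathetic neurons stood high in 3 AVF libraries. *Th* and *Dbh*, which encode enzymes of noradrenaline synthesis, reached 464 and 548 CPM (the count relative to the TMM-scaled library total) in early AVF 7, 163 and 145 CPM in late AVF 16, and 55.6 and 56.8 CPM in late AVF 24. The calls of the 8 genes are given with and without these 3 libraries. Summed over 8 genes, skeletal muscle transcripts ran from 0.940 to 92.0 CPM in contralateral veins and from 6.37 to 7718 CPM in AVFs, with medians of 275, 1518, and 737 CPM at the early, mid, and late time points.

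Compared per kilobase of exon, the 8 genes lay at very different levels in contralateral veins. *Pmp22*, a membrane protein of compact myelin that many other cells also make, was highest at 275 ± 101 CPM per kb (SD, n = 7). *S100b*, a calcium-binding protein of glia and fat cells, followed at 18.2 ± 11.5, *Mbp*, which holds the inner faces of the myelin membrane together, at 12.8 ± 8.38, and the adhesion molecule *Ncam1* at 7.54 ± 5.87 CPM per kb. The means of *S100b*, *Mbp*, and *Ncam1* lay within 1 SD of each other. *Sox10*, the transcription factor that defines the Schwann lineage, stood at 1.25 ± 1.91 and *Prx*, the periaxin scaffold of the myelin sheath, at 0.944 ± 1.10 CPM per kb, again within 1 SD of each other. The neurotrophin receptor *Ngfr*, at 0.0749 ± 0.149, and the intermediate filament *Gfap*, at 0.00274 ± 0.00724 CPM per kb, were at or near 0. These spreads were large because single control veins differed: *Mbp* had 2 counts in contralateral vein 31 and at least 395 in each of the others.

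A gene was called changed when edgeR's quasi-likelihood test gave an adjusted *p* (Benjamini-Hochberg over all tested genes) under 0.01 and the log2 fold change was at least 1. By this rule 3 of the 8 genes were called in early AVFs against contralateral veins, *Gfap* and *Ngfr* higher and *S100b* lower, where 12.6% of all tested genes were called, 6.17% higher and 6.45% lower. In mid AVFs *Gfap* alone was called, against 6.05% of all tested genes (2.74% higher), and in late AVFs again *Gfap* alone, against 5.33% (2.49% higher). *Gfap* and *Ngfr* passed the minimum count through the AVFs alone, so these numbers are not read as a result about the list. Without the 3 libraries with neuron transcripts and with genes filtered anew, none of the 8 was called against contralateral veins. *Gfap* and *Ngfr* were then not tested. None of the 8 was called between time points, where the share of all tested genes was 0.00789% for mid over early, 3.01% for late over early, and 0% for late over mid AVFs. At an unadjusted *p* under 0.05, edgeR gave 3 of the 8 for late over early AVFs (*Pmp22*, *Prx*, and *S100b*), beside 15.9% of all tested genes, and 0 for mid over early and late over mid AVFs, beside 12.7% and 0.308%. DESeq2 called 0 of the 8 in each. The myelin genes *Mbp*, *Pmp22*, and *Prx* were called in none of the 6 comparisons.

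**Figure D1:**
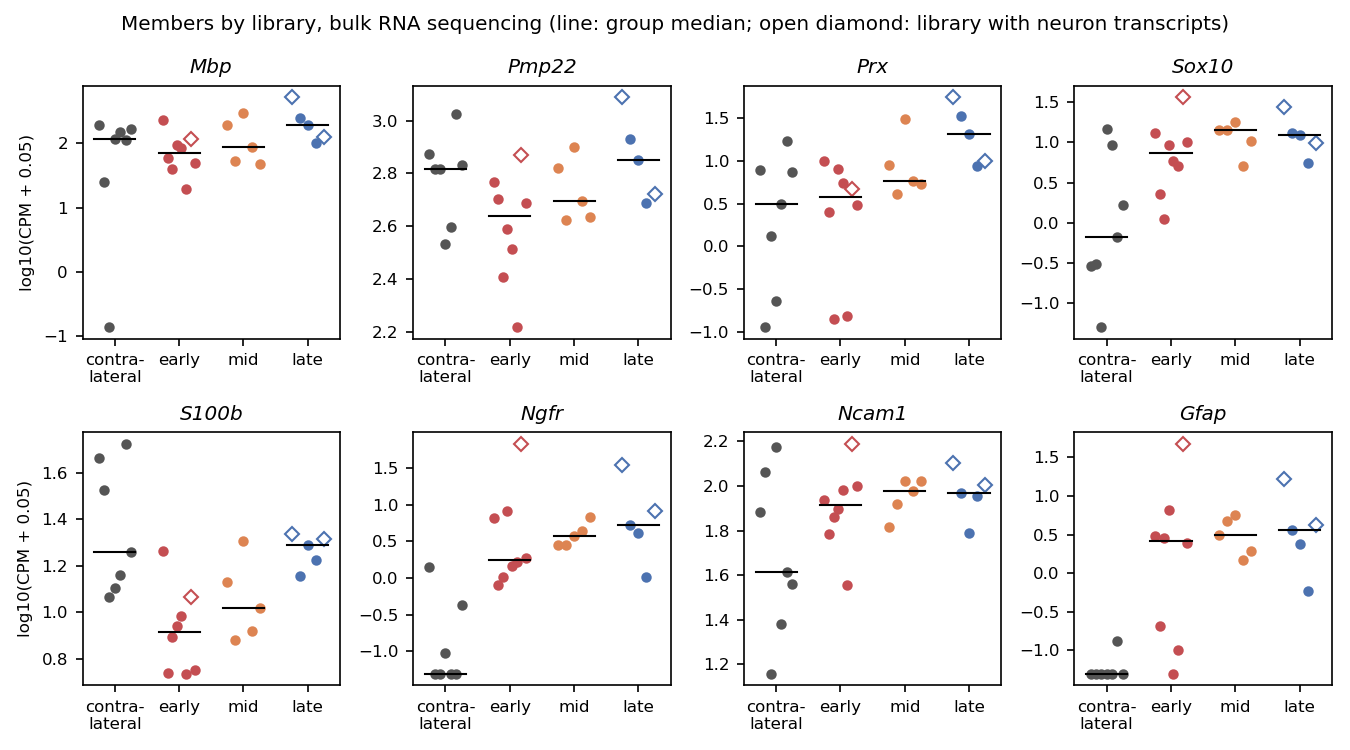
Levels of the 8 genes in the 25 bulk libraries, as log10 of CPM plus 0.05, by group (horizontal line, group median; open diamond, library with neuron transcripts; vertical scales differ between panels). *Gfap* and *Ngfr* sit at the floor in most contralateral veins and above it in nearly all AVFs, whereas the groups overlap for *Mbp*, *Pmp22*, *Prx*, *Sox10*, and *Ncam1*.

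*Gfap* (ENSMUSG00000020932; GRCm38 chr11:102887336-102900912, minus strand) encodes the glial intermediate filament that non-myelinating and repair Schwann cells make, and astrocytes in the brain. It was at 0 in 6 of 7 contralateral veins and at 0.0808 CPM, which was 2 counts, in contralateral vein 632. In early AVFs it ran from 0 to 47.3 CPM with a median of 2.61, and the 5 mid AVFs stood at 3.06, 4.66, 5.56, 1.43, and 1.91 CPM. The 5 late AVFs stood at 16.7, 3.54, 2.36, 0.536, and 4.22 CPM. Every mid and late AVF lay above every contralateral vein, which held for 7.07% and 5.89% of all tested genes, while early AVF 5 had no *Gfap* count and early AVF 6 only 0.0509 CPM. The fitted log2 fold change was 8.98 ± 1.68 (SE; adjusted *p* = 2.7e-04) in early, 7.74 ± 1.64 (adjusted *p* = 0.00196) in mid, and 8.39 ± 1.67 (adjusted *p* = 0.00138) in late AVFs. With 2 counts in the controls these values depend on the prior count, so the summed counts are given as well: scaled to library size, they were 568 times those of the contralateral veins in early AVFs (95% counting interval 157 to 4695), 285 times in mid (78.5 to 2357), and 480 times in late AVFs (133 to 3969). Early AVF 7 alone held 1293 of the 1709 early counts, and late AVF 16 held 630 of the 978 late counts. These intervals cover counting error alone and not the spread between vessels. Without the 3 libraries that held neuron transcripts the call held at each time point, with log2 fold changes of 7.10, 7.75, and 7.06 (adjusted *p* = 9.5e-04, 0.00119, and 0.00566), although the mean normalized count of *Gfap* then was 47.1, below the minimum of 100.

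*Ngfr* (ENSMUSG00000000120; chr11:95568818-95587735, minus strand) encodes the low-affinity neurotrophin receptor and is made by non-myelinating and denervated Schwann cells and also by sympathetic neurons. It was at 0 in 4 of 7 contralateral veins and reached 1.38 CPM in contralateral vein 27. The early AVFs spanned 0.749 to 67.4 CPM with a median of 1.72. The 5 mid AVFs stood at 2.75, 2.73, 3.68, 4.38, and 6.84 CPM, and the 5 late AVFs at 34.3, 5.19, 4.08, 0.996, and 8.22 CPM. All mid AVFs lay above all contralateral veins, whereas early and late AVFs overlapped them. The log2 fold change was 5.42 ± 1.38 (SE; adjusted *p* = 0.00513) in early, 3.96 ± 1.35 (adjusted *p* = 0.0534) in mid, and 5.27 ± 1.42 (adjusted *p* = 0.0147) in late AVFs, so that it was called at the early time point alone. That call rested on 1 library: without early AVF 7, which held the most neuron transcripts and the most *Ngfr*, the early value was 3.52 (adjusted *p* = 0.0289). Without all 3 libraries with neuron transcripts the values were 3.54, 3.98, and 3.68 (adjusted *p* = 0.0357, 0.0398, and 0.124).

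*S100b* (ENSMUSG00000033208; chr10:76253853-76261159, plus strand) moved the other way in early AVFs. Contralateral veins ran from 11.6 to 52.8 CPM with a median of 18.0, and early AVFs from 5.39 to 18.3 CPM with a median of 8.20. The mid AVFs stood at 13.4, 7.54, 20.2, 8.27, and 10.4 CPM and the late AVFs at 21.7, 14.3, 19.5, 16.6, and 20.6 CPM. Early AVFs thus lay mostly below the control veins, with an overlap, and late AVFs lay within the range of the controls. The log2 fold change was −1.55 ± 0.43 (SE; adjusted *p* = 0.00925) in early, −1.15 ± 0.49 (adjusted *p* = 0.133) in mid, and −0.53 ± 0.48 (adjusted *p* = 0.545) in late AVFs. In whole tissue, fewer cells of a type and less RNA per cell cannot be told apart. The early call was close to the threshold and was lost in 15 of 25 fits that left out 1 library, with values from −1.73 to −1.31, and without the libraries with neuron transcripts (−1.59, adjusted *p* = 0.0253). Adipocytes also make *S100b*, and the summed level of 4 adipocyte genes ran from 247 to 2045 CPM in contralateral veins (median 1015) and from 0.865 to 1725 CPM at the early time point (median 319). The part of fat in the fall was not tested.

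For *Gfap* and *S100b*, called in opposite directions in early AVFs, the 250 bases upstream of their RefSeq starts are given (build GRCm38.p6), with each CpG dinucleotide in capitals. *Gfap* is read on the minus strand from chr11:102897201-102897450, within its annotated gene but outside its annotated exons, and *S100b* on the plus strand from chr10:76253586-76253835, just upstream of the gene:
Gfap: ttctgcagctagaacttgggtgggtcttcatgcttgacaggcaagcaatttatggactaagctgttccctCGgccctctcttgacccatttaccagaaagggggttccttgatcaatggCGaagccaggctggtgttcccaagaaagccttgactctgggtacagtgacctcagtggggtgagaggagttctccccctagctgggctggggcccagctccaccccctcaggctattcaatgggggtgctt
S100b: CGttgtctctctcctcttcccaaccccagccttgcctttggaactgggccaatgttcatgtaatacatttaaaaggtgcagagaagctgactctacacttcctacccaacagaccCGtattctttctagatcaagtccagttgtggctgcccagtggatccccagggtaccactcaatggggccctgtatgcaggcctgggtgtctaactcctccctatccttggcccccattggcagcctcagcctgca
Both windows hold 2 CpG, the lower quartile over 32851 promoters (median 6, upper quartile 16), whereas the *Ngfr* window holds 16. The letters ACAAAG (SOX), GTGGGCG (EGR), and TGANTCA (AP-1) were searched on both strands in the windows of *Gfap*, *S100b*, *Ngfr*, *Prx*, and *Pmp22*, and none matched. They occur in 16.5%, 7.02%, and 6.75% of all promoter windows of that length.

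The 3 myelin genes varied more among vessels than between groups. *Mbp* spanned 0.0895 to 188 CPM in control veins (median 117), 19.4 to 228 CPM at the early (median 71.1), 47.9 to 298 CPM at the mid (median 86.0), and 99.99 to 513 CPM at the late time point (median 195). In the same order *Prx* spanned 0.0629 to 17.1 CPM (median 3.08), 0.0894 to 9.80 (median 3.84), 4.09 to 30.9 (median 5.78), and 8.61 to 55.2 (median 20.3). *Pmp22* spanned 341 to 1061 CPM (median 658), 165 to 739 (median 437), 422 to 793 (median 494), and 487 to 1223 (median 710). In all 3 the late group had the highest median, and all groups overlapped with the contralateral veins. Against these veins the log2 fold changes in early AVFs were −0.33 ± 0.67 for *Mbp*, −0.55 ± 0.27 for *Pmp22*, and −0.31 ± 0.90 for *Prx* (SE; adjusted *p* = 0.783, 0.148, and 0.850). In late AVFs they were 1.08 ± 0.76, 0.22 ± 0.31, and 2.24 ± 1.02 (adjusted *p* = 0.404, 0.721, and 0.167). The late AVFs stood above the early ones by 1.41 ± 0.73 for *Mbp*, 0.77 ± 0.29 for *Pmp22*, and 2.55 ± 0.98 for *Prx* on the log2 scale, none of which passed the test (adjusted *p* = 0.367, 0.136, and 0.142). Late AVF 16, a library with neuron transcripts, held the highest level of all 3 genes among late AVFs. Without the 3 libraries with neuron transcripts the late values over contralateral veins were 0.72, 0.08, and 1.98 (adjusted *p* = 0.790, 0.947, and 0.465).

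*Sox10* and *Ncam1* did not pass the test in any comparison either. *Sox10* ran from 0 to 14.8 CPM in contralateral veins (median 0.606), and from 1.07 to 36.2 in early, 5.04 to 18.1 in mid, and 5.47 to 27.2 in late AVFs (medians 7.60, 14.2, and 12.4). Contralateral veins fell apart: 2 of them, 34 and 35, stood at 14.8 and 9.15 CPM, as high as AVFs, and the other 5 at 1.62 CPM or less. The log2 fold changes were 1.45 ± 0.93, 1.71 ± 1.02, and 1.79 ± 1.02 at the early, mid, and late time points (SE; adjusted *p* = 0.289, 0.306, and 0.290). *Ncam1* ran from 14.4 to 150 CPM in contralateral veins (median 41.0) and from 36.0 to 154 CPM over all AVFs, with medians of 82.3, 94.6, and 93.0. Its log2 fold changes were 0.42 ± 0.38, 0.49 ± 0.42, and 0.53 ± 0.42 (SE; adjusted *p* = 0.463, 0.511, and 0.473).

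**Figure D2:**
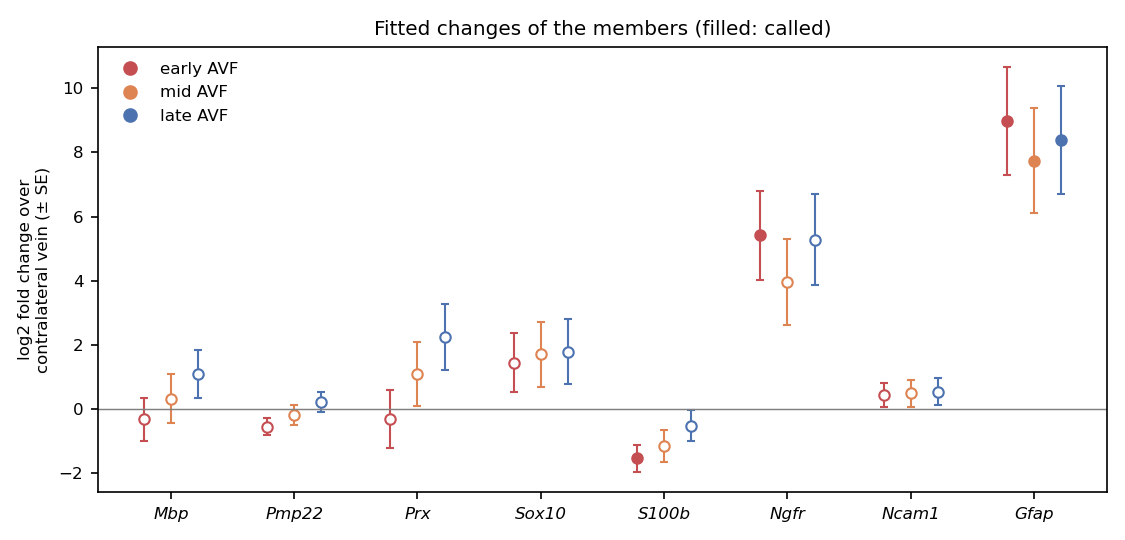
Fitted log2 fold changes of the 8 genes over contralateral veins at the early, mid, and late time points (bars, ± SE; filled circles, called at an adjusted *p* under 0.01 and a log2 fold change of at least 1). *Gfap* is called at all 3 time points at 7.74 to 8.98, *Ngfr* and *S100b* at the early time point alone, and the error bars of most other values reach or come close to 0.

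Among early AVFs, 7 was the highest for *Gfap*, *Ngfr*, *Sox10*, *Ncam1*, and *Pmp22*, and among late AVFs 16 was the highest for all 8 genes. Satellite glia, which surround neurons in ganglia, were followed through *Fabp7* and *Kcnj10*. Their summed level was 42.1 CPM in early AVF 7, against a median of 2.33 in early AVFs and 0 to 2.84 CPM in contralateral veins. It was 11.1 CPM in late AVF 16. These 2 genes do not single out satellite glia here, since Schwann-like single cells of contralateral veins held 226 and 49 molecules of them. Across the 25 libraries, *Ngfr* and *Gfap* varied together most closely (Pearson *r* of log2 CPM 0.850, or 0.782 over the 22 libraries without high neuron transcripts), followed by *Pmp22* with *Prx* (0.683) and with *S100b* (0.677), while *Sox10* and *S100b* had a weak negative *r* (−0.289). The libraries carry group, complexity, and neuron content in common, so these are descriptions. Among the other 12665 tested genes, those most like *Ngfr* were *Btc* (*r* = 0.942), *Tubb3* (0.924), and *Rab15* (0.906), at 0.949, 0.893, and 0.889 over those 22 libraries, and those most like *Gfap* were *Ache* (0.912), *Eya1* (0.902), and *Syt17* (0.902), at 0.874, 0.863, and 0.862 over the 22. *Tubb3* is a neuronal tubulin and *Ache* the esterase of acetylcholine. The closest to *Mbp* were *Slc39a10* (0.917), *Kidins220* (0.915), and *Erbb2* (0.913), the partner of the neuregulin receptor of Schwann cells. For *Pmp22* they included *Sema3b* (0.838) and *Aktip* (0.811), and for *Prx* they were *Cyb5d1* (0.859), *Ids* (0.858), and *Krba1* (0.846). *Sox10* was closest to *Il34* (0.873), *Zbtb40* (0.872), and *Samd10* (0.871), *S100b* to *Itga1* (0.834), *Tmcc3* (0.832), and *Ctnnal1* (0.820), and *Ncam1* to *Dlst* (0.857), *Armc9* (0.845), and *Wdr7* (0.83). For all of these closest genes the rank correlation (Spearman) was lower than *r*. It ran from 0.555 for *Kidins220* with *Mbp* to 0.896 for *Btc* with *Ngfr*. For *Zbtb40*, *Dlst*, and *Slc39a10* it was 0.579, 0.605, and 0.632. *Mbp* had 2 counts in contralateral vein 31, and the weight of such single libraries in *r* was not tested.

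Of 14 other myelin genes, 9 were tested, and 1 was higher and none lower in early AVFs. No median over contralateral veins is given for this list, since it holds a gene that was tested because of its level in AVFs. The gene called was *Mag*, an adhesion molecule of the myelin membrane that faces the axon. *Mag* had 40 counts in all contralateral veins together and so passed the minimum count through the AVFs alone. It was at 0 in 4 of 7 contralateral veins and at most at 0.932 CPM there, and it ran from 0.983 to 8.22 CPM in early, 3.14 to 9.12 in mid, and 2.64 to 16.4 in late AVFs. All AVFs lay above all control veins, as did 4.23%, 7.07%, and 5.89% of tested genes at the early, mid, and late time points, and it was called at all 3 time points with log2 fold changes of 4.38, 4.73, and 5.07 (adjusted *p* = 0.00244, 0.00357, and 0.00258). Without the libraries with neuron transcripts the late call was lost (4.76, adjusted *p* = 0.0228). *Mag* was also the single myelin gene called in mid and in late AVFs. *Egr2*, the transcription factor that drives myelination, had a log2 fold change of 0.44 (adjusted *p* = 0.789) in early and 1.29 (adjusted *p* = 0.483) in late AVFs.

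Of 8 other lineage genes, 7 were tested, and *Scn7a*, a sodium channel gene strong in non-myelinating Schwann cells, was the one called. It ran from 157 to 281 CPM in contralateral veins and from 2.11 to 71.0 CPM in early AVFs, below all control veins (as were 2.48% of all tested genes), which was −2.42 ± 0.41 on the log2 scale (SE; adjusted *p* = 8.3e-05). It held without the neuron libraries (−2.44, adjusted *p* = 4.5e-04). Contralateral vein 31, within the control range of *Scn7a*, had no *Sox10* count and 2 *Mbp* counts. Which cells made *Scn7a* in whole vessels was not tested. In mid AVFs it stood at 78.0 to 136 CPM, again below all control veins (4.91% of genes), and in late AVFs at 66.8 to 158 CPM, and no lineage gene was called at these times. The neuregulin receptor *Erbb3* had log2 fold changes of 0.08, 0.90, and 0.97 (adjusted *p* = 0.975, 0.759, and 0.739). The list had median log2 fold changes of −0.69, −0.45, and 0.33 at the early, mid, and late time points.

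Of 12 genes of the repair state, 6 were tested and 1 was called, at all 3 time points. This was *Gap43*, a growth-cone protein that repair Schwann cells and regrowing axons both make. *Gap43* had 39 counts in all contralateral veins together, so that it too passed the minimum through the AVFs alone. It was at 0 in 5 of 7 contralateral veins and at most at 1.31 CPM, and it ran from 0 to 278 CPM in early, 16.3 to 29.2 in mid, and 4.93 to 103 in late AVFs. Its log2 fold changes were 7.81, 6.73, and 7.32 (adjusted *p* = 6.6e-04, 0.00399, and 0.00275), and without the libraries with neuron transcripts they were 5.86, 6.76, and 5.51 (adjusted *p* = 0.00439, 0.00388, and 0.0301), so that the late call was lost. *Jun*, which drives the repair state but is made by many cells, was not called, at −0.42, 0.23, and 0.01 (adjusted *p* = 0.492, 0.812, and 0.994). No median is given for the repair list, since genes such as *Gap43* and *Btc* (56 counts in all contralateral veins) were tested because of their level in AVFs. Of 4 genes of the perineurium, the sheath of nerve bundles, the integrin *Itgb4* was lower in early AVFs (−1.96 ± 0.44, adjusted *p* = 0.00189), and none was called later.

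Of 11 neuron genes, 8 were tested, and 7, 2, and 5 of these were higher than in contralateral veins at the early, mid, and late time points. Without the 3 libraries with the highest *Th* and *Dbh* the counts were 4, 3, and 2. Most were at or near 0 in the control veins and so were tested because of their level in AVFs. The neuropeptide gene *Npy* was at 0 in all contralateral veins and ran from 1.84 to 369 CPM in early, 0.857 to 7.12 in mid, and 0.358 to 47.7 in late AVFs. *Gal*, a neuropeptide gene that sympathetic neurons switch on after injury, was at most at 0.0901 CPM in contralateral veins and at 2.00 to 315, 0.498 to 11.3, and 1.15 to 53.3 CPM in AVFs. *Tubb3* ran from 0 to 7.01 CPM in control veins and from 15.8 to 656, 11.2 to 43.7, and 7.64 to 260 CPM in AVFs. *Npy*, *Gal*, and *Tubb3* thus lay above the control veins in all AVFs, in those without high *Th* and *Dbh* as well. So did 4.23%, 7.07%, and 5.89% of all tested genes at the early, mid, and late time points. Neither satellite glia gene was tested. Of all tested genes, 6.17%, 2.74%, and 2.49% were called higher than in contralateral veins at the early, mid, and late time points. In the same order 6.45%, 3.31%, and 2.85% were called lower. Of other tissues and cells, 6 of 8 skeletal muscle genes were higher at each time point and none of 4 adipocyte genes was called. All 5 smooth muscle genes were lower at each time point. Summed, the skeletal muscle genes reached at most 92.0 CPM in contralateral veins, so some may have been tested because of their level in AVFs. Their calls are therefore not compared with the shares above. Endothelial genes were lower for 4, 4, and 3 of 6, fibroblast genes for 3, 1, and 0 of 5, and myeloid genes were higher for 4, 2, and 2 of 5 at the early, mid, and late time points. The part of these shifts in the 8 genes was not tested. Between late and early AVFs no gene of the myelin, lineage, repair, perineurium, or neuron lists was called, where 3.01% of all tested genes were, and the myelin list had a median of 0.85 and the lineage list of 1.02, beside 0.01 for all genes.

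In single cells, 6319, 4753, and 5821 barcodes of the contralateral, early AVF, and late AVF libraries were kept of 26438, with medians of 2751, 8951, and 15425 UMIs (unique molecules). Any 2 libraries shared 14 to 19 barcodes. Clusters were formed without the 8 genes and without the genes used to name them. Of 14 clusters, 1 was Schwann-like: all 10 Schwann markers, among them *Erbb3* and *Cdh19*, were up in it, and its leading genes included *Kcna1*, *Mal*, *Mbp*, *Gatm*, *Ncmap*, *Gpm6b*, *Prx*, and *Aatk*. It held 397 cells of contralateral veins, 6.28% (95% exact binomial interval 5.70 to 6.91), 11 cells of early AVFs, 0.231% (0.116 to 0.414), and 24 cells of late AVFs, 0.412% (0.264 to 0.613). With 1 library per condition there was no test between conditions, intervals cover counting error alone, and the share of a class also moves with the yield of digestion and with the other cells present. Median depth in the Schwann-like cluster was 2885, 2228, and 10319 UMIs in the 3 libraries.

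In contralateral veins all 8 genes had their highest CPM in Schwann-like cells among the named classes, although *Gfap* on 1 UMI alone. There these cells, 6.28% of all, carried 96.9% of *Sox10* UMIs, 95.2% of *Prx*, 87.3% of *Mbp*, 60.7% of *Pmp22*, 51.4% of *S100b*, and 48.6% of *Ncam1*. The rest of *Pmp22* and *S100b* lay mainly in fibroblast-like cells (26.2% and 42.7%), and that of *Ncam1* in fibroblast-like (22.7%) and endothelial-like cells (20.3%). *Ngfr* had 71 UMIs in this library, 62.0% in fibroblast-like and 28.2% in Schwann-like cells, and *Gfap* had 3. *Sox10* had no UMI in 794 mono/macro-like cells and *Prx* was seen in 0.252% of them, against 54.4% and 68.8% of Schwann-like cells at a similar median depth (2942.5 and 2885 UMIs). *Mbp* was seen in 38.9% of T cell-like cells (147 CPM) and 16.0% of mono/macro-like cells, and was thus detected outside glia as well.

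**Figure D3:**
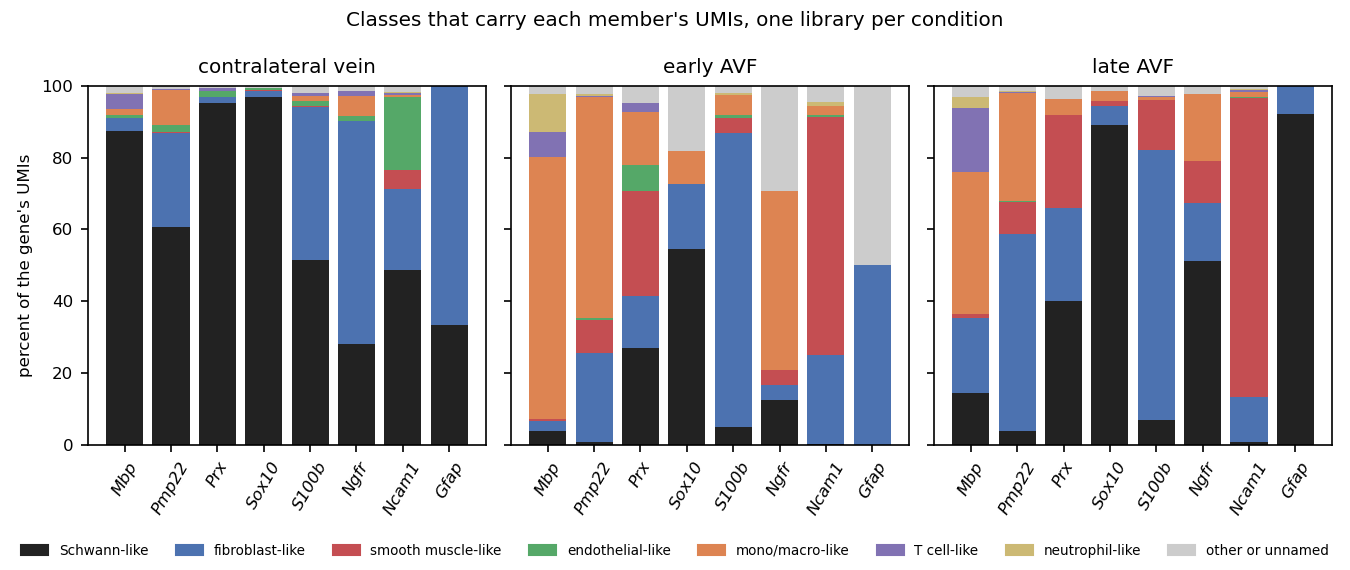
Share of each gene's UMIs by cell class in the contralateral, early AVF, and late AVF libraries (stacked bars, percent of the gene's UMIs; *Gfap* rests on 3, 2, and 13 UMIs). Schwann-like cells carry most *Mbp*, *Pmp22*, *Prx*, and *Sox10* in contralateral veins and most *Sox10* and *Gfap* in late AVFs, whereas *Ncam1* is mostly in smooth muscle-like cells in AVFs.

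In AVFs most UMIs of *Mbp*, *Pmp22*, *S100b*, and *Ncam1* lay in other classes, whereas in late AVFs Schwann-like cells held the largest part of *Prx* (40.0%), *Ngfr* (51.2%), *Sox10*, and *Gfap*. Of *Mbp* UMIs in early AVFs, 72.9% were in mono/macro-like cells, as were 61.5% of *Pmp22* UMIs, these cells being 47.3% of the library. *Mbp* was seen in 30.7% of them, and *Sox10* and *Prx* in 0.0445% and 0.267% of the same cells (median 12845 UMIs). With each cell thinned at random to 1000 UMIs, *Mbp* was seen in 3.53% of these cells and in 3.78% of contralateral mono/macro-like cells. At that depth the *Mbp* level in early AVFs was 35.3 CPM in mono/macro-like cells and 2444 CPM in the few Schwann-like cells. In the whole early library *Sox10* had 11 UMIs and *Prx* 41. Where the *Mbp* RNA of mono/macro-like cells came from was not tested. In late AVFs fibroblast-like cells carried 55.02% of *Pmp22* and 75.3% of *S100b*, and smooth muscle-like cells carried 83.5% of *Ncam1*. The *Ncam1* level of smooth muscle-like cells was 86.8 CPM in contralateral veins (27 UMIs in 31 cells), 455 CPM in early, and 440 CPM in late AVFs, the highest of any class in AVFs. The fibroblast-like class held different clusters by condition, since 1637 of its 1842 contralateral cells were in a cluster with 2 early and 29 late cells. *Sox10* stayed largely with Schwann-like cells, at 89.0% of 73 UMIs in late and 54.5% of 11 UMIs in early AVFs. *Gfap* had 13 UMIs in late AVFs, of which 12 were in Schwann-like cells.

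Within Schwann-like cells the levels of the myelin genes were lower in AVFs. *Mbp* stood at 6370, 1617, and 1208 CPM in contralateral veins, early AVFs, and late AVFs, a ratio of late to contralateral of 0.190 (95% counting interval 0.170 to 0.211). *Pmp22* stood at 8165, 1844, and 2628 CPM (ratio 0.322, 0.298 to 0.347), and *Prx* at 1159, 312, and 190 CPM (ratio 0.164, 0.123 to 0.215). The lineage genes moved less: *Sox10* stood at 322, 170, and 229 CPM (ratio 0.711, 0.540 to 0.925), and *S100b* at 340, 284, and 278 CPM (ratio 0.818, 0.636 to 1.04). *Ncam1* stood at 176, 170, and 155 CPM (ratio 0.882, 0.624 to 1.22), with an interval that includes an equal level.

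*Ngfr* had a higher level in Schwann-like cells of both AVF libraries and *Gfap* in those of the late library alone, in both cases on few UMIs. *Ngfr* had 20 UMIs in 11 of 397 contralateral cells, 3 UMIs in 2 of 11 early cells, and 22 UMIs in 10 of 24 late cells, levels of 14.5, 85.1, and 77.5 CPM. The ratio to contralateral veins was 5.86 (1.11 to 19.8) in early and 5.33 (2.78 to 10.3) in late AVFs. *Gfap* had 1 UMI in 1 of 397 contralateral cells (0.726 CPM), none in 11 early cells, which allows up to 85.1 CPM at 3 UMIs, and 12 UMIs in 7 of 24 late cells (42.3 CPM). Its late ratio was 58.2, with a counting interval of 8.61 to 2487 because of the single control UMI, and no cell held more than 5 of the 12 UMIs. No Schwann-like cell of early or late AVFs held a UMI of *Th*, *Dbh*, *Prph*, *Npy*, or *Gal*. The 397 contralateral cells held 3, 3, 5, 1, and 1. With 11 and 24 AVF cells these zeros decide little: the counting interval of the *Th* ratio reached 94.5 in early and 11.7 in late AVFs. *Tubb3* had 12 UMIs in late and 6 in contralateral Schwann-like cells, a ratio of 9.70 (3.37 to 31.5), and *Hand2* had 2 and 1.

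**Figure D4:**
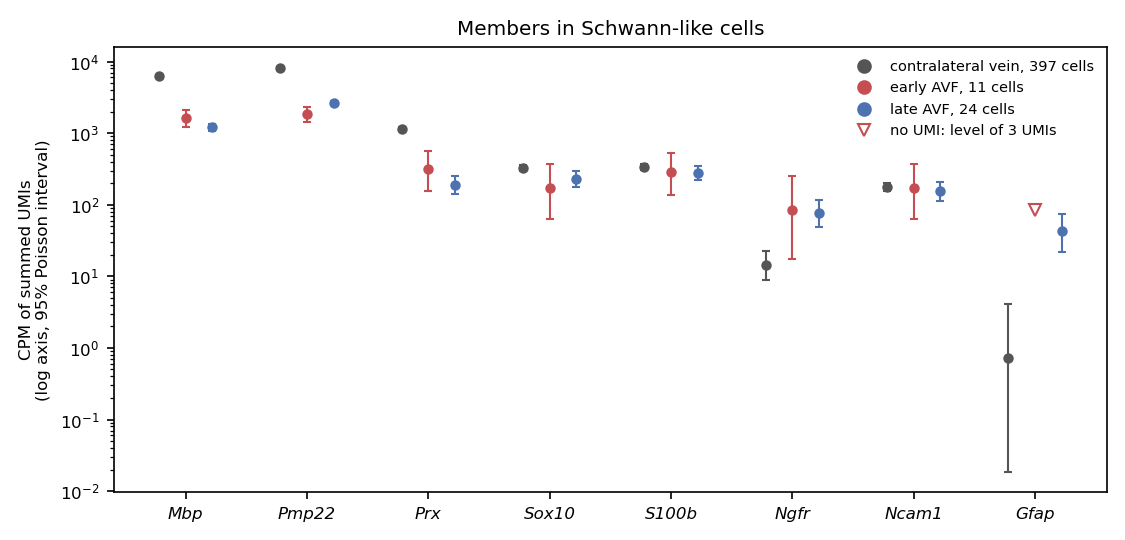
CPM of the 8 genes in the summed UMIs of Schwann-like cells of the contralateral (397 cells), early AVF (11 cells), and late AVF libraries (24 cells), on a log axis (bars, 95% exact Poisson interval, counting error alone; open triangle, level of 3 UMIs where none was seen). *Mbp*, *Pmp22*, and *Prx* lie lower in both AVF libraries. *Ngfr* lies higher in both, but on 3 UMIs in early AVFs, where its interval overlaps that of contralateral veins. *Ncam1* and *S100b* have overlapping intervals.

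Depth in these cells differed, so each cell was also thinned to 1000 UMIs, which left out 61, 2, and 2 shallower cells. At equal weight per cell *Mbp* stood at 6866 CPM in contralateral and 2545 CPM (1923 to 3305) in late cells, *Pmp22* at 8256 and 2727 CPM, and *Prx* at 1134 and 364 CPM (157 to 717). *Sox10* stood at 333 and 182 CPM (49.5 to 466). *S100b* turned round, at 348 CPM (288 to 417) in contralateral and 591 CPM (315 to 1010) in late cells, so no direction is given for it. *Ngfr* was left with 7 and 2 UMIs and *Gfap* with 0 and 1, too few to compare.

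The 8 genes were not spread evenly within the Schwann-like cluster of contralateral veins. *Prx* was seen in 273 of its 397 cells, and *Ncam1* in 17 of these (6.23%) but in 46.8% of the 124 cells without *Prx*, although the cells without *Prx* were shallower (median 1335.5 against 3511 UMIs). Of the 75 cells with *Ncam1*, 80.0% also had *Scn7a*, against 21.7% of the rest. Of the 360 cells with *Mbp*, 75.3% had *Prx*. After thinning to 1000 UMIs the same contrast stood at 2.49% against 25.9% for *Ncam1* by *Prx*, and at 85.0% against 15.9% for *Scn7a* by *Ncam1*. *Prx* thus lay mostly in cells other than those with *Ncam1*. Between libraries, at 1000 UMIs, *Prx* was seen in 59.8% (54.4 to 65.1) of contralateral and 18.2% (5.19 to 40.3) of late cells, and *Scn7a* in 24.1% (19.6 to 29.0) and 54.5% (32.2 to 75.6). *Ncam1* was seen in 11.9% (8.64 to 15.9) of contralateral cells and in 1 of 22 late cells, 4.55% (0.115 to 22.8). Before thinning, at unequal depth, it was seen in 75 of 397 contralateral and 18 of 24 late cells. With 1 late UMI left and overlapping intervals, no direction is given for *Ncam1*. The part of these shares in the lower myelin levels of late AVFs was not tested.

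Other genes of the lists in Schwann-like cells are given as late over contralateral ratios of summed UMIs with counting intervals. Among myelin genes *Mag* stood at 0.202 (0.112 to 0.338) and *Egr2* at 0.501 (0.357 to 0.687). *Mag*, higher in the bulk libraries of AVFs, was thus lower per Schwann-like cell RNA in late AVFs, which were harvested later than the bulk ones. *Erbb3* stood at 0.671 (0.492 to 0.898) and *Scn7a* at 1.40 (1.22 to 1.60). Of the repair genes *Gap43* stood at 28.2 (14.8 to 59.3), on 64 UMIs against 11, and *Jun* at 1.87 (1.77 to 1.98), but *Jun* in early AVFs at 0.395 (0.288 to 0.530). Chosen after its values were seen, the trophic factor *Gdnf* had 26 UMIs in the 24 late cells and none in the 397 contralateral cells.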

How the data were processed

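Bulk RNA was extracted from ground vessels, poly(A)-selected, and sequenced from 25 libraries. The authors deposited raw read counts per Ensembl gene for bulk libraries and UMI counts per gene and barcode for 3 droplet libraries, the latter limited to barcodes called as cells. The submitters' processing notes name Cell Ranger, STAR, mm10, and GRCm38 without their roles, and the counting tool is not given in the sources used here. Groups, sex, and time points were taken from the deposited labels, and positions from the GENCODE annotation of GRCm38. Nothing states that vessels of a group came from separate cages or days, so *p* values measure the spread between these vessels.

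Genes whose DESeq2-normalized counts averaged 100 or more were fitted with edgeR 4.0.16 (R 4.3.3, TMM, quasi-likelihood, 4 group means, no covariate), which was first tested on simulated data. CPM used TMM-scaled library sizes, and exon lengths were unions of exons. An adjusted *p* under 0.01 was the threshold, with 0.05 as an alternative. Other alternatives were no filter or filterByExpr (20076 genes), RLE size factors, a likelihood ratio test, DESeq2 1.42.0, sex as a covariate, female mice alone, and each library left out. Fits on fewer libraries kept the same genes. Leaving out libraries in which *Th* and *Dbh* both exceeded 10 CPM, the interaction with sex, the thinned co-detection, and the CpG capitals were chosen after the data had been seen. No gene except the 8, genes of the lists with the smallest adjusted *p*, 5 fixed marker genes, and the 3 genes most like each member were named, unless stated. Some genes that this rule names are not reported here. The 8 genes and all lists were chosen with earlier results of these data known.

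Barcodes were kept if they had 200 to 6000 genes and no more than 10% mitochondrial UMIs, and 2000 variable genes without the 8 genes and the naming markers, 12 principal components, 20 neighbours, and Leiden clustering (leidenalg 0.10.2, scanpy 1.11.5, resolution 0.5) were used. A cluster was named when at least 3 fixed markers were 2-fold up. Scrublet called 0, 2, and 120 cells, none of them Schwann-like, and so did not work in the libraries of contralateral veins and early AVFs. Doublets were left in. Intervals (95%, exact Poisson or binomial) and floors of 3 counts cover counting error only.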

Additional observations from a re-analysis of the deposited data

Results flagged for a closer look

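In each group of 4 to 10 libraries, a level was singled out when the gap from the highest or lowest library to its nearest neighbour took up an unusually large part of the group's range (Dixon's test at 95%). Of 32 groups, 9 were singled out. The rate of 1 in 20 set by the test holds for normally distributed values. These CPM were skewed, some lay at 0, and the groups share the same 25 libraries, so the number is not compared with chance. *Gfap* was at 0 in 6 of 7 contralateral veins, so that any count there stands apart. *Gfap* stood apart at 47.3 CPM in early AVF 7, at 16.7 CPM in late AVF 16, and at 0.0808 CPM, which was 2 counts, in contralateral vein 632. *Ngfr* stood apart at 67.4 CPM in early AVF 7, at 34.3 CPM in late AVF 16, and at 1.38 CPM in contralateral vein 27. *Sox10* stood apart at 36.2 CPM in early AVF 7. These 2 AVF libraries held the most *Th* and *Dbh* of their groups, at 464 and 548 CPM in early AVF 7 and at 163 and 145 CPM in late AVF 16. *Mbp* stood apart at 228 CPM in early AVF 1 and *Prx* at 30.9 CPM in mid AVF 13, where neuron transcripts were not high. No member's response to the AVF differed between male and female mice by the interaction test of edgeR (smallest adjusted *p* = 0.605, for *Gfap* in early AVFs, where the male minus female log2 fold change was −6.13).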

How the results depend on the processing

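No paired analysis was possible because the bulk groups share no replicate numbers, and the single-cell libraries were not tested. Against contralateral veins, the number of the 8 genes called was 3 at the early, 1 at the mid, and 1 at the late time point. It was 2 in late AVFs at an adjusted *p* under 0.05, with filterByExpr, without a filter, with the likelihood ratio test, and with DESeq2, and 2 in mid AVFs with DESeq2, each time through *Ngfr*. It was 2 in early AVFs without a filter and with sex as a covariate, where the call of *S100b* was lost. In female mice alone it was 0 at all 3 time points, although *Gfap* then had log2 fold changes of 12.0, 9.45, and 10.7 (adjusted *p* = 0.0130, 0.0374, and 0.0263). Without the libraries with neuron transcripts it was 1 in early AVFs, and 0 at all 3 when genes were filtered anew, because *Gfap* and *Ngfr* were then not tested. With 1 library left out it was 1 to 3 in early (1 without early AVF 7), 1 to 2 in mid and late, and 0 between time points. *Gfap* kept its calls in all 25 such fits of each comparison. *Ngfr* gained the mid call without contralateral vein 27 and the late call without that vein or without early AVF 7. Over all tested genes the calls were 1599, 767, and 676 at the early, mid, and late time points, and 1, 381, and 0 for mid over early, late over early, and late over mid. They were 2520, 1421, 1304, 482, and 795 for the first 5 at an adjusted *p* under 0.05, 3803, 2823, 2696, and 0 with filterByExpr for the first 4, and 3938, 2728, and 2567, with 208 for late over early, without a filter. The likelihood ratio test gave 1158, 1044, 356, and 625 for mid, late, mid over early, and late over early, and DESeq2 gave 2440, 1418, 1294, 474, 753, and 1. Mid over early was 0 with RLE size factors, with sex as a covariate, and in female mice alone, where the others were 368, 225, 204, and 0 for late over early. Without the libraries with neuron transcripts the late count was 257, mid over early 0, and late over early 5, and 244, 0, and 7 with genes filtered anew. With 1 library left out the counts ran from 1383 to 1816, 534 to 949, 424 to 886, 0 to 306, 32 (without late AVF 24) to 557, and 0 to 0. Late over mid had 39 genes at an unadjusted *p* under 0.05. No called value changed sign, and 36 of 1668 log2 fold changes of the 8 genes did, called in neither fit. The causes were not tested. Of 240 single-cell values 207 moved by less than their counting interval, and 33 moved more. Values of Schwann-like cells in AVFs rest on 11 and 24 cells.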
